A study of Mus musculus with 8 samples.

Results

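The genes described here are 39 genes of the cell cycle and of DNA replication, chosen by symbol, that a dividing cell needs to copy its DNA and to separate the copies. They include Brca2 and Rrm1, which the study displayed in its heat map of genes that differed between transgenic and wild-type lungs. On the array the 39 genes had 65 of 41174 probes, and 37 of them had a tested probe, of 18439 genes tested and 20920 genes with a symbol in all. The RNA came from whole lungs of 4 wild-type and of 4 Scgb3a2-transgenic animals, and each lung had a two-color microarray of its own, 8 in all. All mice were untreated males of the C57BL/6 strain, aged 8 to 10 weeks per the labels. The transgenic mice came from a line of 1 founder in which mouse Scgb3a2, a secreted airway protein, was driven by the human SP-C promoter, which is active in alveolar type II cells. Each array carried the RNA of 1 lung in Cy5 and a common pool of whole mouse lung RNA in Cy3, described in the methods as equal amounts of RNA from each sample, and no array had the dyes swapped. Each value below is therefore a log2 ratio of a lung to the pool (its level), or a difference between 2 such ratios.

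A cell that enters the cycle passes from G1 into S phase when E2F factors and cyclin E switch on the genes of replication. The MCM helicase is loaded onto DNA with the help of Cdc6 and Cdt1, PCNA clamps the polymerases to the fork, and ribonucleotide reductase, thymidylate synthase and thymidine kinase supply the nucleotides. After S phase Foxm1, cyclins A and B, Cdk1, and the Plk1 and Aurora kinases drive mitosis, in which kinesins, centromere proteins and the spindle checkpoint separate the chromosomes. Most cells of the adult lung at rest are not dividing, and which cells these transcripts came from was not measured in this whole-lung RNA.

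The arrays agreed in their general quality: 32257 to 34707 probes per array were well above background in Cy5, and 1.64% to 6.39% of spots had an outlier flag. Each of the 4 slides carried 1 wild-type and 1 transgenic lung, and the arrays were scanned on 2 days with 2 lungs of each genotype on each. Scgb3a2 itself was at 0.01, -0.39, 0.58 and -0.56 in the wild-type lungs and at 1.26, 0.47, 0.69 and 0.74 in the transgenic lungs, so that the groups overlapped, with a difference of 0.88 on the log2 scale (SE 0.24, limma adjusted p = 0.9999, exact two-sided permutation p = 0.0571). Of the alveolar type II markers 8 of 8 were bright enough to be tested, and of the airway epithelium markers 7 of 8. The median level against the pool was 0.28 for type II, 0.71 for airway, 0.17 for type I and endothelial, -0.01 for B cell, -0.09 for plasma cell, -0.22 for T cell, 0.33 for thymocyte, 0.11 for erythroid, -0.15 for neutrophil precursor, -0.71 for macrophage and 0.30 for heart muscle markers.

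The cell cycle genes stood lower in the lungs than in the pool. Of the 37 genes tested, 31 were lower in the lungs (limma, adjusted p under 0.05), while 26.4% of all genes were, and 2 were higher, against 32.7% of all genes. Their median level was -0.55 on the log2 scale, that is, a signal 1.46 times higher in the pool, where the median of all genes was 0.03. More than 1.5-fold lower were 17 genes (4.81% of all genes), 1 gene, Bub1, was more than 1.5-fold higher (6.61%), and more than 2-fold lower were 5 (1.25%), namely Top2a, Ccnb1, Tk1, Mki67 and Rrm2. In 28 genes every measured lung lay below the pool, against 3705 of all 18439 genes tested. In 2 genes, Bub1 and Birc5, every lung lay above it, against 4566 of all 18439. For each gene called, the mean of both genotypes lay on the same side of the pool, as the plot of the levels by lung shows. The macrophage markers lay below the pool as well, with 5 of 7 lower. Of the 8 T cell markers 5 were lower and 2 higher. The part of these cell types in this result was not tested. The p-value measures the spread between lungs only. The methods describe the pool as equal amounts of RNA from each sample. The level of a gene in such a pool would lie within the range of the lungs. However, every measured lung lay below the pool in 28 of these genes and in 3705 of all 18439. Every lung lay above it in 2 of these genes and in 4566 of all 18439. The make-up of the pool was not tested. All arrays shared 1 pool and 1 dye orientation, so the make-up of the pool and a dye effect of a probe cannot be told apart. With a pool made otherwise, a lower level in the lungs cannot be told apart from these. Nor can fewer dividing cells and less RNA per cell be told apart.

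**Figure D1:**
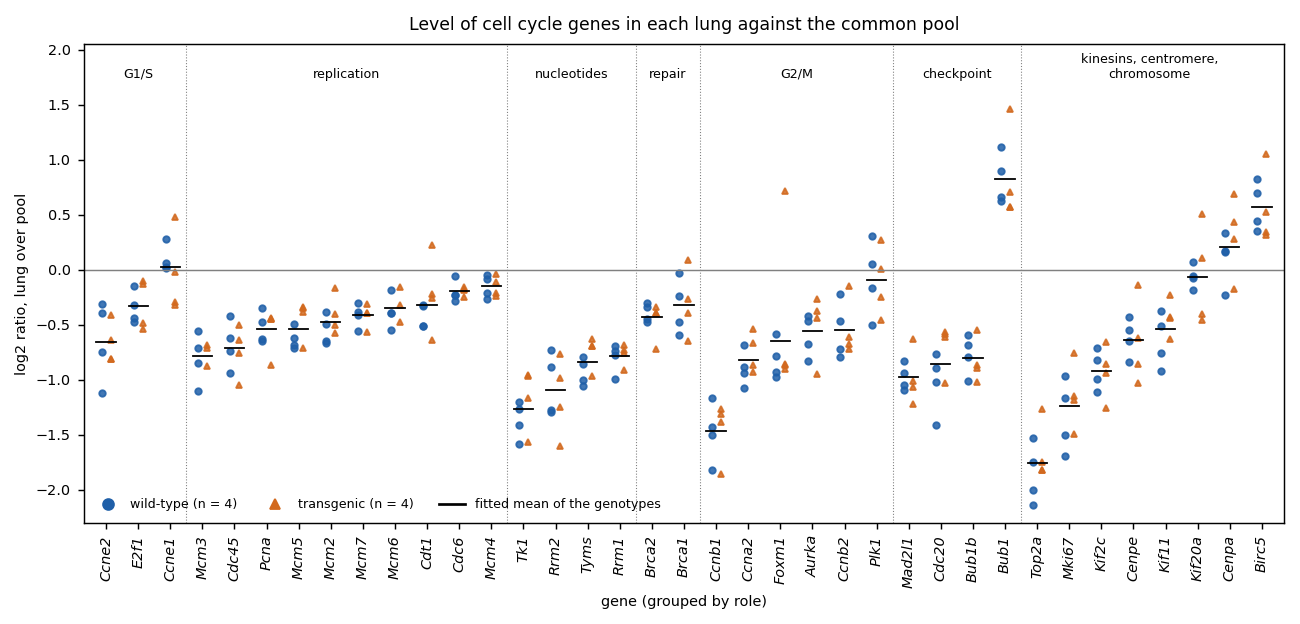
Log2 ratio of lung to pool (y axis) of the 37 tested genes (x axis, grouped by role), with 1 point per lung, circles for the 4 wild-type and triangles for the 4 transgenic lungs, and a bar at the fitted mean of the genotypes. Most genes lie below 0 in every lung, Top2a lowest at -1.76, while Bub1 and Birc5 lie above 0 in all lungs.

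The promoters of these genes are shown for the 3 mitotic genes farthest below the pool and for Bub1 and Birc5, which were above it. Genes of mitosis often carry CCAAT boxes and a CHR element (cell cycle genes homology region), and genes of S phase often carry E2F sites. The sequences are the RefSeq entries of build GRCm38.p6, 250 bases before to 50 bases after the start, on the strand of the gene, and capitals mark every CCAAT box (CCAAT), CHR (TTTGAA or TTCGAA) and E2F site (TTTGGCGC, TTTCCCGC, TTTCGCGC or TTTGCCGC) on either strand. They lie at chr11:99024140-99024439 (Top2a, minus strand), chr13:100786437-100786736 (Ccnb1, minus strand), chr7:135716330-135716629 (Mki67, minus strand), chr2:127831810-127832109 (Bub1, minus strand) and chr11:117848987-117849286 (Birc5, plus strand).
Top2a: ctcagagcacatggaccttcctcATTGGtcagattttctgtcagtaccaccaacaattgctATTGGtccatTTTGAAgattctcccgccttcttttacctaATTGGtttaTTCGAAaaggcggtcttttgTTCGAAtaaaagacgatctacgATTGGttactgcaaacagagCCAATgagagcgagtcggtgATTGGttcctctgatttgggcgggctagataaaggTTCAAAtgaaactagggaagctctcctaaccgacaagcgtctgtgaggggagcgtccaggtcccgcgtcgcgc
Ccnb1: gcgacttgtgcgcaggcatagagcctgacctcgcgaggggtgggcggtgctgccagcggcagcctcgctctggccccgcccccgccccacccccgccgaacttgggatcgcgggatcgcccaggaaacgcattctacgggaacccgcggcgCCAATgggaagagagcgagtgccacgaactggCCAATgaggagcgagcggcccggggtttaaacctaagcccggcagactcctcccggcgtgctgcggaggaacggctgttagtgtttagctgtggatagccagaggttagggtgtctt
Mki67: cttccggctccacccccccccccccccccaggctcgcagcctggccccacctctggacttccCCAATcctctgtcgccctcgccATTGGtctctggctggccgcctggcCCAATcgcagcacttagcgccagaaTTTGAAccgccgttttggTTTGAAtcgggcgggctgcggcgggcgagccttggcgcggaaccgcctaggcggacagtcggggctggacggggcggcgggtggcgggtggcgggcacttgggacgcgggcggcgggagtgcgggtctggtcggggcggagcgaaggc
Bub1: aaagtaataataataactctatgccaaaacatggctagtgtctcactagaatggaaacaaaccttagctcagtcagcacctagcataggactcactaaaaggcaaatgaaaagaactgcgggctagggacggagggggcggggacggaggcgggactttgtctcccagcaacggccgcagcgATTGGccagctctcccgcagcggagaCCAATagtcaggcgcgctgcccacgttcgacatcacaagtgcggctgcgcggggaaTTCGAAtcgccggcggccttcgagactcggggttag
Birc5: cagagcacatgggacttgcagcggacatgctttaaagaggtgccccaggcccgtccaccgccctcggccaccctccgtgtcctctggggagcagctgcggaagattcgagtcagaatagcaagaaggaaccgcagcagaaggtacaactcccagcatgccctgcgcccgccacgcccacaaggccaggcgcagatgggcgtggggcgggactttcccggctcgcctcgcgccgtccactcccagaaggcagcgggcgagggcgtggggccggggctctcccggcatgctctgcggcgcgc

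Top2a, the topoisomerase that untangles sister chromosomes, had 6 CCAAT boxes and 4 CHR words in this window. Ccnb1, the mitotic cyclin B1, had 2 CCAAT boxes at -99 and -67 from the start, and Mki67, the proliferation marker Ki-67, had 3 CCAAT boxes and 2 CHR words at -116 and -98. Bub1, which was above the pool on its brightest probe, had 2 CCAAT boxes at -68 and -42 and 1 CHR at 15, and Cenpa, with a level of 0.21, likewise had 2 CCAAT boxes and 1 CHR. In the Birc5 window none of these letters occurred, so that the genes at or above the pool were not alike in these letters. Among the 33 of 39 genes with an entry, 23 (69.7%) held a CCAAT box, against 37.4% of all 32851 entries of the same length, 15 (45.5%) held a CHR against 19.2%, and 8 (24.2%) held an E2F site against 2.26%. Both a CHR and a CCAAT box were present in 14 genes (42.4%), against 7.52% of all entries. By role, the E2F site was found in 6 of 9 genes of replication licensing and of the fork, and the CHR in 4 of 5 genes of the G2/M cyclins and kinases, 3 of 4 of the spindle checkpoint and 5 of 7 of the kinesins, centromere and chromosome proteins. None of the 4 nucleotide supply genes held a CHR or an E2F site. The entries of all genes hold several starts for some genes, and a match is a description of the letters only.

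Among the genes of G1/S control, E2f1, the activator of S phase genes, was lower in the lungs than in the pool at -0.33 (SE 0.07), and Ccne2 (cyclin E2) at -0.66 (SE 0.09). Ccne1 (cyclin E1) was at 0.03 (SE 0.08) and did not pass the test (limma, adjusted p = 0.785). The median of the 3 genes was -0.33.

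All 10 genes of replication licensing and of the fork were lower than in the pool, with a median of -0.45. The largest differences were those of Mcm3 at -0.78 (SE 0.07, from 7 lungs), a subunit of the MCM helicase, and Cdc45 at -0.71 (SE 0.07), which joins the helicase to make it active. The other MCM subunits were at -0.54 (Mcm5), -0.48 (Mcm2), -0.41 (Mcm7), -0.35 (Mcm6, from 7 lungs) and -0.15 (Mcm4), so that the subunits of 1 complex spanned -0.78 to -0.15. Pcna was at -0.54 (SE 0.06), and the loading factors Cdt1 and Cdc6 were at -0.32 and -0.20.

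The 4 genes of nucleotide supply were all lower, each in all 8 lungs, and their median of -0.97 was the lowest of the 7 roles. Tk1, the thymidine kinase of the salvage route, was at -1.20, -1.41, -1.59 and -1.27 in the wild-type lungs and at -0.96, -0.97, -1.16 and -1.57 in the transgenic lungs. The genotypes overlapped, and the level against the pool was -1.26 (SE 0.07, limma, adjusted p = 1.73e-07). Rrm2, the small subunit of ribonucleotide reductase, whose level follows S phase, was at -0.88, -0.73, -1.29 and -1.28 in wild-type and at -0.98, -0.76, -1.25 and -1.61 in transgenic lungs, with a level of -1.10 (SE 0.09, limma, adjusted p = 3.23e-06).

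Rrm1, the large subunit of the same enzyme, was more even between lungs. Its log2 ratios were -0.69, -0.77, -0.74 and -0.996 in the wild-type lungs and -0.69, -0.76, -0.73 and -0.91 in the transgenic lungs, with a level of -0.79 (SE 0.05, limma, adjusted p = 4.50e-07) and a genotype difference of 0.03 (SE 0.10). A further probe of Rrm1 gave no signal well above background, in either channel, on any of the arrays. Tyms, the thymidylate synthase, was at -0.84 (SE 0.06).

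Of the 2 DNA repair genes, Brca2, which acts in the repair of broken DNA by recombination, was at -0.30, -0.45, -0.34 and -0.47 in wild-type lungs and at -0.34, -0.39, -0.39 and -0.72 in transgenic lungs. The groups overlapped, and all 8 lungs lay below the pool, at -0.43 (SE 0.06, limma, adjusted p = 7.06e-05). The genotype difference was -0.07 (SE 0.11, limma unadjusted p = 0.537), and -0.324 with the processed signals, without passing the adjusted test. Neither Brca2 nor Rrm1, both in the study's heat map, was over 1.5-fold different with an unadjusted p under 0.05 here. The heat map itself used a higher fold threshold. The paper also measured several of its most changed genes by qRT-PCR, which has no counterpart here. The other probe of Brca2 was well above background in 3 of 8 lungs and was not tested. Its fitted genotype difference had the opposite sign, at 0.20 (SE 0.10). Brca1 was at -0.32 (SE 0.08), with 7 of 8 lungs below the pool.

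Of the 8 G2/M cyclins and kinases 6 were tested, 5 of them lower than in the pool. Ccnb1 was at -1.43, -1.51, -1.82 and -1.17 in wild-type and at -1.39, -1.31, -1.27 and -1.86 in transgenic lungs, with a level of -1.47 (SE 0.08, limma, adjusted p = 1.15e-07). It was a dim probe, well above background in 7 of 8 lungs. The partner cyclins Ccna2 and Ccnb2 were at -0.82 and -0.55, and Aurka, the kinase of the spindle poles, was at -0.55. Plk1, the Polo kinase, was at -0.09 (SE 0.09) and did not pass the test, with 4 of 8 lungs below the pool. Cdk1, the kinase that cyclin B activates, and Aurkb were not tested. One Cdk1 probe was well above background in 8 of 8 Cy3 channels and in none of the lungs. Its fitted ratio was 2.02-fold higher in the pool and was not tested. The other Cdk1 probe, which was the brighter, was well above background in 3 of 8 Cy3 channels and in 1 of 8 lungs, with a fitted level of -0.03 that was not tested. For Aurkb the fitted ratio was 1.19-fold higher in the pool, likewise not tested, with 6 of 8 Cy3 channels and none of the lungs well above background.

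Among the spindle checkpoint genes and the activator of the anaphase-promoting complex, 3 were lower and 1 was higher than in the pool. Mad2l1, a checkpoint protein that holds back Cdc20, was at -0.98 (SE 0.07), Bub1b at -0.80 (SE 0.07) and Cdc20, which starts anaphase, at -0.86 (SE 0.08). Bub1, a checkpoint kinase at the centromere, was at 1.12, 0.67, 0.89 and 0.62 in wild-type and at 1.46, 0.71, 0.57 and 0.57 in transgenic lungs, with a level of 0.83 (SE 0.10, limma, adjusted p = 3.68e-05) on its brightest probe. Its other probe gave the opposite direction, as described below.

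The kinesins, centromere and chromosome proteins ranged farthest, from Top2a at -1.76 to Birc5 at 0.57. Top2a was at -2.00, -1.75, -2.14 and -1.53 in the wild-type lungs and at -1.75, -1.27, -1.82 and -1.82 in the transgenic lungs. Every lung was at less than the pool by more than 1 on the log2 scale, and the level of -1.76 (SE 0.08, limma, adjusted p = 3.39e-08) corresponds to a pool 3.39-fold above the lungs. Mki67 was at -0.97, -1.50, -1.70 and -1.17 in wild-type and at -0.76, -1.15, -1.19 and -1.49 in transgenic lungs, with a level of -1.24 (SE 0.09, limma, adjusted p = 1.04e-06), or 2.36-fold. Kif2c, a kinesin that takes microtubules apart, was at -0.92, Cenpe, which carries chromosomes along the spindle, at -0.64, and Kif11, which pushes the spindle poles apart, at -0.54. Birc5 (survivin), a subunit of the chromosomal passenger complex, was at 0.70, 0.35, 0.82 and 0.45 in wild-type and at 1.06, 0.32, 0.34 and 0.52 in transgenic lungs, 1.48-fold above the pool (SE 0.09 on the log2 scale, limma, adjusted p = 0.000195). Cenpa, the histone of the centromere, was at 0.21 (SE 0.09, adjusted p = 0.0686) and Kif20a, a kinesin of late mitosis, at -0.06 (SE 0.10), and neither passed the test.

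Probes of the same gene did not always give the same level. Of 14 genes with more than 1 tested probe, 6 had probes on both sides of 0, and 3 were called lower by 1 probe and higher by another. Bub1 was at 0.83 on its brightest probe, which the array annotation gives as transcript variant 1, and at -0.89 (SE 0.08) on the probe given as variant 2. On the variant 2 probe all 8 lungs lay below the pool, and on the variant 1 probe all 8 lay above it. Foxm1, the factor that switches on mitotic genes, was at -0.65 (SE 0.15) on its brightest probe and at 0.98 (SE 0.06) on a probe assigned to a further transcript, and Mcm4 was at -0.15 and 0.36. The probes of Ccne1 were at 0.03 and -0.74, of E2f1 at -0.33 and 0.03, and of Kif20a at -0.06 and 0.18. Top2a (-1.76 and -0.95), Mki67 (-1.24 and -1.64) and Mad2l1 (-0.98 on both) gave the same sign on both tested probes. With the tested probes of a gene averaged, 30 genes were lower and 2 were higher than in the pool, but Bub1 then turned to -0.03 and Foxm1 to 0.16.

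**Figure D2:**
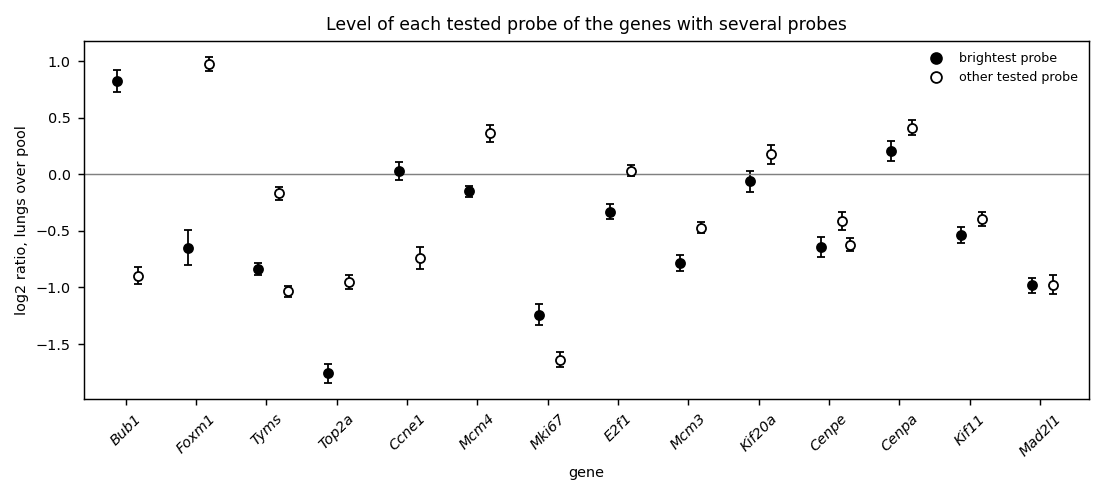
Log2 ratio of lungs to pool (y axis, fitted mean of the genotypes with its standard error) for every tested probe of the 14 genes (x axis) with more than 1, filled for the brightest probe and open for the others. Bub1 and Foxm1 have probes on opposite sides of 0, while the probes of Mad2l1 coincide at -0.98.

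The transgene was not accompanied by a detectable difference in these genes. By limma with adjustment over all probes, 0 of 37 genes differed between transgenic and wild-type lungs, where 0% of all genes were called. None of the 37 had an unadjusted p under 0.05, against 2.3% of all genes, none passed the study's criterion of over 1.5-fold with an unadjusted p under 0.05, against 0.298%, and none had groups that did not overlap, against 2.3%. At an unadjusted p under 0.05 the methods' t-test likewise called 0 of the genes, and the share of all genes was not computed for it. With slide or scan day as a block 1 gene, Cdc20, had an unadjusted p under 0.05, against 3.78% and 2.64% of all genes, and none had an adjusted one. The difference of transgenic minus wild-type ranged from -0.14 for Ccne1 to 0.34 for Foxm1, with a median of 0.02 (all genes, 0.01), 24 genes being higher and 13 lower in transgenic lungs without passing a test. The standard errors were 0.09 to 0.31 on the log2 scale, so that a difference of this size could not be told from the spread between 4 mice per genotype.

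**Figure D3:**
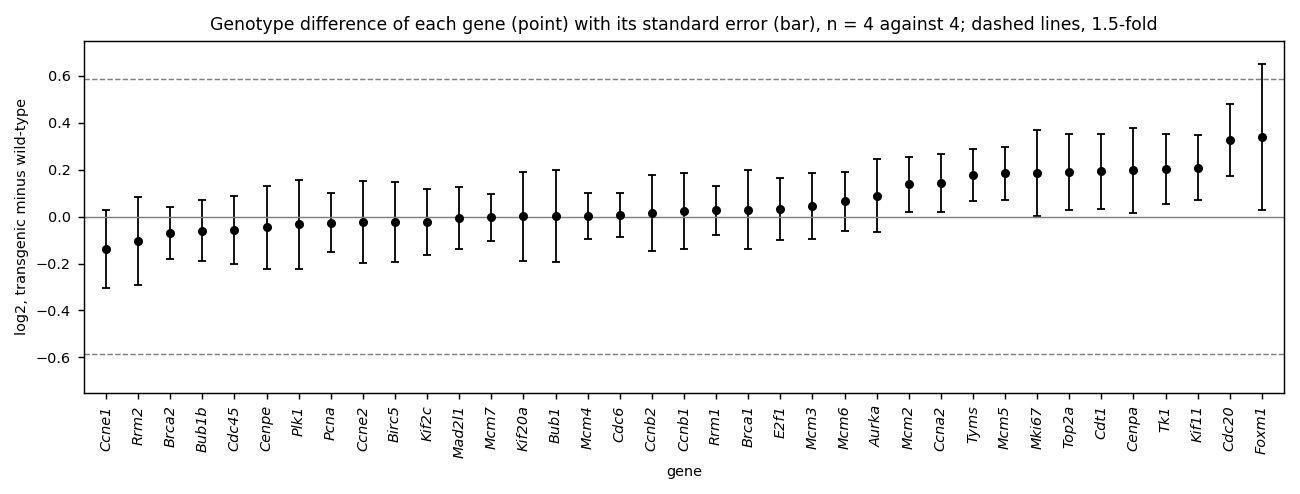
Difference in log2 ratio of transgenic minus wild-type lungs (y axis) for the 37 genes (x axis, in order of the difference), with the standard error of the limma fit as bars and dashed lines at 1.5-fold. All points lie between -0.14 and 0.34, inside the dashed lines.

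Cdc20 had the smallest p of the 37. It was at -1.02, -0.89, -1.41 and -0.77 in wild-type lungs and at -0.58, -0.56, -0.61 and -1.03 in transgenic lungs, so that 3 transgenic lungs lay above every wild-type lung and the last lay below 3 of them. The difference was 0.33 (SE 0.15, limma p = 0.0583 unadjusted, adjusted p = 0.9999; exact two-sided permutation p = 0.114, where 4 against 4 allow no p below 0.0286). Within each slide the transgenic lung was the higher, by 0.44, 0.33, 0.38 and 0.16. Foxm1 had the largest difference, but it was at -0.97, -0.93, -0.79 and -0.58 in wild-type and at 0.72, -0.86, -0.87 and -0.90 in transgenic lungs, so that on this brightest probe transgenic replicate 1 alone was above the pool. On the other tested probe of Foxm1 all 8 lungs were above the pool, at 0.84, 0.64, 0.92 and 1.07 in wild-type and at 1.04, 1.01, 1.30 and 1.00 in transgenic lungs, with a difference of 0.22 (SE 0.12). Within slides Foxm1 differed on its brightest probe by 1.69 on the slide of that lung and by -0.12, 0.07 and -0.28 on the others. The differences of Mki67 and Top2a were 0.19 (SE 0.18) and 0.19 (SE 0.16), and each was positive on 3 of the 4 slides.

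The count of genes with a small p turned on 1 lung. Without transgenic replicate 4, 6 of the 37 genes had an unadjusted p under 0.05, against 3.32% of all genes, and all 6 were higher in transgenic lungs, namely Cdc20 by 0.44 (SE 0.15), Tk1 by 0.34 (SE 0.13), Cdt1 by 0.33 (SE 0.14), Mcm5 by 0.27 (SE 0.11), Cenpa by 0.36 (SE 0.15) and Tyms by 0.25 (SE 0.11). None had an adjusted p under 0.05. Without wild-type replicate 4 the count was 1 (Cdc20, against 4.04% of all genes), without transgenic replicate 1 it was 1 (Ccne1, lower by 0.31, against 3.6%), and without any of the other 5 lungs it was 0. The median difference of the 37 genes was 0.15, 0.07, -0.04 and 0.03 within the 4 slides and 0.06 and 0.07 within the scan days.

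Lungs differed from each other in the genes as a group. The mean level over the 35 genes measured in all lungs was -0.52, -0.59, -0.64 and -0.58 in the wild-type lungs and -0.36, -0.45, -0.57 and -0.72 in the transgenic lungs. The transgenic lungs thus spanned both the highest and the lowest mean, with -0.52 ± 0.16 (SD, n = 4) against -0.58 ± 0.05 (SD, n = 4) in wild-type, and the means lay within the spread of the transgenic lungs. Of the 35 genes, 15 had their highest value of all lungs in transgenic replicate 1 and 10 in transgenic replicate 2, while 12 had their lowest in transgenic replicate 4 and 9 in wild-type replicate 3. Several marker lists also had their highest mean in transgenic replicate 1, while others had their lowest there. The means of 4 alveolar type II markers and of 5 heart muscle markers were lowest in that lung, each at -0.18. The mean of 7 B cell markers was highest in transgenic replicate 1, at 0.36, and was -0.31 in transgenic replicate 4 and -0.47 in wild-type replicate 3, with ranges of -0.47 to -0.01 in wild-type and -0.31 to 0.36 in transgenic lungs. The 8 T cell markers (0.30, -0.26 and -0.32) and 4 plasma cell markers (0.64, -0.16 and -0.49) gave the same order in these 3 lungs, and all 7 B cell and all 8 T cell markers were tested. Transgenic replicate 4, the lowest for the cell cycle genes, was not the lowest lung for the B and T cell markers. The mean of 6 neutrophil precursor markers was highest in transgenic replicate 1, at 0.45, and lowest in transgenic replicate 4, at -0.52, and that of 6 airway markers was likewise highest in the former, at 1.03, and lowest in the latter, at 0.10. Their part in the variation was not tested. The macrophage markers were highest in transgenic replicate 2, at -0.39, and lowest in transgenic replicate 4, at -1.05.

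**Figure D4:**
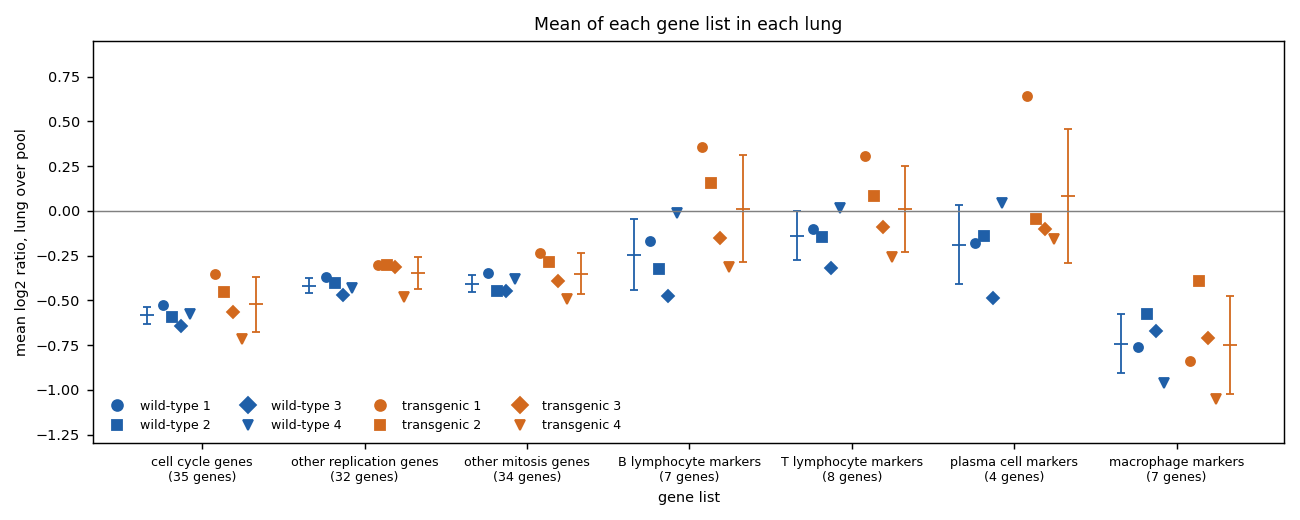
Mean log2 ratio of lung to pool (y axis) of the cell cycle genes, the other replication and mitosis genes and 4 lists of immune cell markers (x axis) in each of the 8 lungs, with the mean and SD of each genotype (n = 4) as bars beside the points. Transgenic replicate 1 is highest for the cell cycle genes (-0.36) and for the B, T and plasma cell markers, and transgenic replicate 4 is lowest for the cell cycle genes (-0.72).

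After removal of the genotype means, the genes tended to vary together across lungs. The median Pearson correlation over the 595 pairs of the 35 genes was 0.27, and 29.4% of pairs had a correlation above 0.5, where all genes on the array had a median of 0.01 and 16.5% above 0.5. Of the pairs, 32.4% had a correlation below 0. The median was 0.20 among the other mitosis genes and 0.13 among the other replication genes described below. Over the cell type marker lists it ranged from 0.06 (type I and endothelial) to 0.64 (plasma cell), so that varying together was not particular to these genes. These correlations rest on 8 lungs that share the pool and the 4 slides and are given as a description. Without transgenic replicate 4 the median was 0.09. The highest correlations were those of Mcm5 with Tyms (0.95), Tk1 with Tyms (0.95), Ccnb2 with Mki67 (0.95) and Ccnb1 with Cdc20 (0.94). The 4 nucleotide supply genes had a median of 0.57 among themselves, the kinesins, centromere and chromosome proteins 0.42, the spindle checkpoint genes 0.31, the replication genes 0.12, the G2/M cyclins and kinases 0.05 and the 3 G1/S control genes -0.10. Tk1 (0.53) and Tyms (0.51) had the highest median correlation with the other genes. Ccne2 (-0.32), Pcna (-0.30), Ccna2 (-0.28), Plk1 (-0.27) and E2f1 (-0.23) had the lowest. Some of these genes ran opposite to other members, as Plk1 with Ccnb1 (-0.90), Pcna with Ccnb2 (-0.89) and Ccne2 with Cdc20 (-0.86). Others ran together, as Ccne2 with Plk1 (0.80) and E2f1 with Pcna (0.63).

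**Figure D5:**
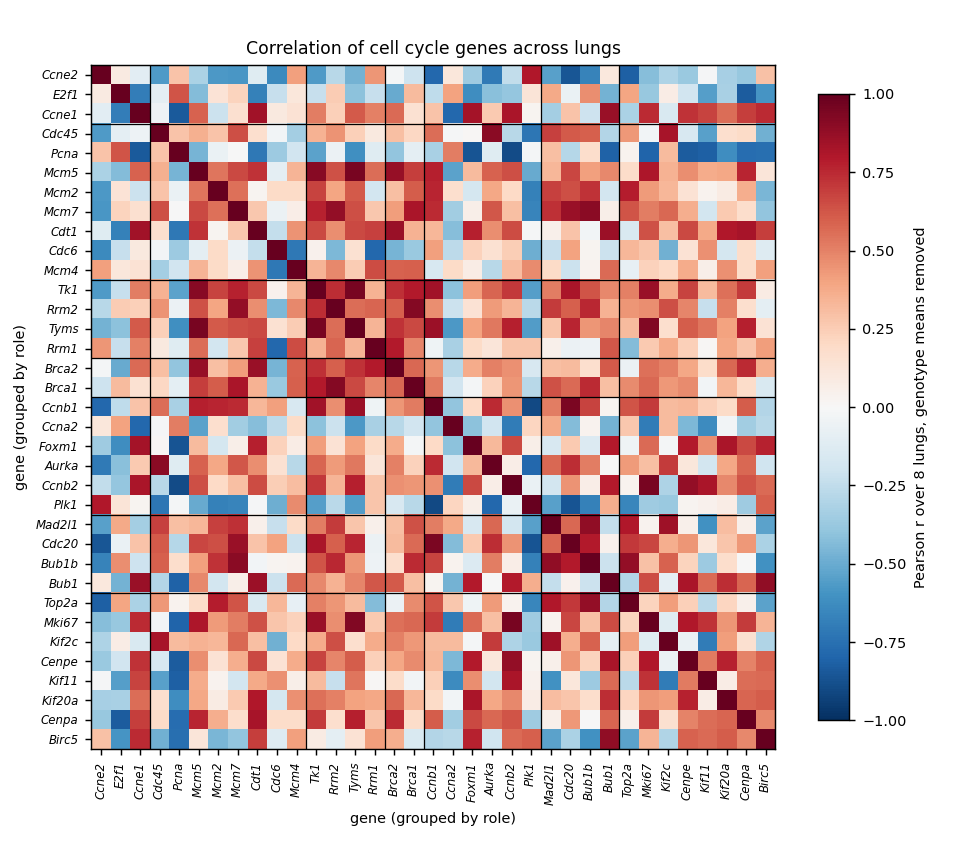
Pearson correlation (color scale from -1 to 1) between the 35 genes over 8 lungs after removal of the genotype means, with genes on both axes grouped by role and lines between roles. Nucleotide supply genes correlate among themselves, with a median of 0.57, while Ccne2, Pcna and Plk1 have negative median correlations with the other genes.

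Other genes of the cycle gave a like picture against the pool where they act in replication or mitosis. Of 33 other replication genes tested 27 were lower and 2 higher than in the pool, against 26.4% of all genes lower and 32.7% higher, with a median of -0.39, among them Gins2, a partner of Cdc45 in the helicase, at -0.96, Chaf1b, a histone chaperone, at -0.78 and Pole, the leading strand polymerase, at -0.77. Lig1, the DNA ligase, was among the higher genes at 0.23, and Rfc2, a subunit of the clamp loader, at 0.20 (from 4 lungs) did not pass the test. Of 36 other mitosis genes 21 were lower and 8 higher, against the same shares, with a median of -0.38. Tpx2, which activates Aurka, was at -1.41, Spc25, a kinetochore protein, at -1.34 and Smc2, a condensin subunit, at -1.32, while Dlgap5 (0.68), Hmmr (0.61) and Pttg1 (0.56), all of the mitotic spindle or its exit, were above the pool.

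The lists of genes that control entry into the cycle had medians nearer to the pool, the G1 list only slightly so. Of 12 G1 cyclins, kinases and phosphatases 7 were lower and 1 was higher, against 26.4% and 32.7% of all genes, with a median of -0.29; Cdk4 was at -0.58, Ccnd2 at -0.46 and Cdk2 at -0.42, while Cdc25b, a phosphatase that activates Cdk1, was at 0.22, and E2f2 (0.15) and Cdk6 (-0.02) did not pass the test. Of 20 inhibitors and genes of quiescence 7 were lower and 4 higher, against the same shares, with a median of 0.01. Cdkn1a (p21), the inhibitor induced by p53, was at -1.22 (SE 0.17), Ccng1, a further p53 target, at -1.08 (SE 0.07, from 7 lungs) and Rbl1, a pocket protein that binds E2F factors, at -0.49, while Cdkn2a, which encodes p16 and p19ARF, was at 1.37 (SE 0.07), Trp53 at 0.54 (from 5 lungs) and Cdkn2c at 0.40.

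None of these further genes passed the adjusted test between genotypes. The smallest p-values of the limma fit were those of Ccnd1 (cyclin D1), higher in transgenic lungs by 0.24 (SE 0.10, exact permutation p = 0.0286), Cks2, a subunit of Cdk complexes, by 0.25 (SE 0.11, p = 0.0571) and Slbp, which binds histone mRNA, by 0.21 (SE 0.09, p = 0.0286), each with an adjusted limma p of 0.9999. Ccnd1 was at -0.36, -0.47, -0.46 and -0.60 in wild-type and at -0.20, -0.31, -0.27 and -0.14 in transgenic lungs, without overlap. Of the 101 further genes tested 6 had groups that did not overlap, against 2.3% of all genes, and the 4 besides Ccnd1 and Slbp were named after their values were seen. Higher in transgenic lungs were Ccnd1, Slbp and Btg1 (0.17, from 4 lungs), and lower were E2f5 (-0.12, from 8 lungs), Cdkn1c (-0.31, from 4 lungs) and Cdkn2d (-0.10, from 5 lungs). Groups of 2 or 3 lungs overlap less readily than groups of 4.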

How the data were processed

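The authors deposited, per array, Agilent Feature Extraction files (version 10.10.1.1 per the file headers, 11.0.1.1 per the labels) with median signals and local backgrounds as intensity per spot and channel, and a matrix of log2 ratios, which for 39811 of 39811 probes with 1 spot equaled the software's processed ratios within 0.001. Gene symbols are those of the matrix.

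From the median intensities, log2 ratios were computed with limma 3.58.1 (R 4.3.3): normexp background correction with an offset of 50, fitted on spots without an outlier flag, removal of flagged spots and of spots with a local background more than 50 above the signal, loess within each array (span 0.3) and averaging of spots. The offset draws the ratios of dim probes toward 0. Testing required a Cy5 signal well above background on 4 or more of 8 arrays and 2 or more values per genotype (32645 of 41174 probes). A gene is given by its brightest tested probe. limma gave, two-sided with Benjamini-Hochberg adjustment over all tested probes, the genotype difference and the mean level of the genotypes against the pool. For single genes an exact permutation test is given beside it. The number of arrays limits the precision. The design had named mean signals, and median signals were used since the files hold these. The analysis was tested on simulated data, and the alternatives tried are in the closing section.

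Named were all members, with values per lung for Mki67, Top2a, Brca2, Rrm1 and the genes with the smallest p, the largest distance from the pool or the largest spread, and, of the pathway lists, the 3 farthest from the pool on each side and the 3 smallest p. The members and lists were chosen with earlier results of these data known. Whether 1 replicate number in both genotypes marks a pair was checked: the deviations of same-numbered lungs correlated at 0.31, 0.27, -0.10 and -0.19, and the numbers were not taken as pairs. Lungs of 1 slide, which carried both genotypes, correlated at 0.31, 0.27, 0.26 and 0.07. Promoter sequences are those of RefSeq (GRCm38.p6). The plots used matplotlib 3.10.9 under Python 3.11.15. Values of some genes that this rule names are not reported here.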

Additional observations from a re-analysis of the deposited data

Results flagged for a closer look

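Among the 72 groups of 4 lungs examined, 8 held a lung that stood apart from the other 3, where chance gives about 1 in 20 groups, or 3.6. That figure takes the groups as independent, which genes measured in the same lungs are not. Transgenic replicate 1 stood apart in 3 genes: Foxm1 was on its brightest probe at 0.72 there against -0.90 to -0.86 in the other transgenic lungs, Bub1 at 1.46 against 0.57 to 0.71, and Pcna at -0.87 against -0.45 to -0.44. Transgenic replicate 4 stood apart in 3 genes: Cdc20 was at -1.03 against -0.61 to -0.56, Mcm5 at -0.71 against -0.38 to -0.34, and Brca2 at -0.72 against -0.39 to -0.34. Top2a was at -1.27 in transgenic replicate 2 against -1.82 to -1.75 in the other transgenic lungs. In wild-type replicate 1 Ccne1 was at 0.28 against 0.02 to 0.06. All values are log2 ratios of lung to pool.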

How the results depend on the processing

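Under every alternative run, 0 of the members passed the adjusted test or the study's criterion between genotypes. Cy5 alone and the methods' t-test gave no level against the pool. Under the other alternatives 28 to 32 members were called lower than the pool and 2 or 3 higher. The number of all probes called lower was 7292 to 10520 over those of them that tested single probes. Probes called higher were counted for the main fit alone, at 29.5%. The members' median level of -0.55 was -0.72 with a normexp offset of 0, -0.75 with the processed signals, -0.75 with the authors' matrix and -0.40 with normexp fitted on all spots (-0.58 to -0.54 with 1 lung left out). The members more than 1.5-fold lower, 17, were 11 with normexp fitted on all spots, 23 with an offset of 0 and 24 with the processed signals or the authors' matrix. A single member had an unadjusted p under 0.05 between genotypes with the processed signals, the authors' matrix, array weights, slide or scan day as a block. The share of all genes was 3.78% with slide and 2.64% with scan day as a block. It was not computed for the processed signals, the authors' matrix and array weights. The cause of the shifts between settings was not tested. The number of all probes that met the criterion, 76, was 236, 369, 360 and 34 under these 4 settings, 27 with the methods' t-test, 137 with slide as a block, and 51 to 167 with 1 lung left out, highest without wild-type replicate 4 (167), and 152 without transgenic replicate 4 and 118 without transgenic replicate 3. With the replicate block it was 133, and the block changed no call of a member.

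Differences near 0 changed sign. The genotype difference of Brca2 turned to 0.0784 with normexp fitted on all spots, was -0.324 with the processed signals and the authors' matrix, and ranged from -0.111 to 0.0155 with 1 lung left out, positive without transgenic replicate 4. That of Rrm1 turned to -0.0544 with median-centring and -0.0370 with Cy5 alone and ranged from -0.0384 to 0.0725, negative without wild-type replicate 4 or transgenic replicate 1. Against the pool, averaging the probes of a gene turned Bub1 to -0.0344, Foxm1 to 0.16 and Kif20a to 0.0563, and Kif20a ranged from -0.158 to 0.0025 with 1 lung left out, positive without transgenic replicate 4. The median correlation between members was 0.15 to 0.67 over the other settings, highest with normexp fitted on all spots. A level of a dim probe such as Ccnb1 moved most (-2.93 to -0.94), and Cdk1 and Aurkb were too dim to be tested.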

Other observations

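Over 16136 further genes measured in all lungs, those whose values across lungs followed the mean of the cell cycle genes most closely after removal of the genotype means included Gli2 (Pearson r of 0.99), Sema4a (0.97), Hist1h2ao (0.97), Tfip11 (0.97), Olfr303 (0.97), Ly86 (0.96), Apobr (0.96), 1700034I23Rik (0.96) and Gas7 (0.96), over 8 lungs that share the pool and slides. These are the highest values out of 16136 genes and were not tested against chance. Of the 91 further replication, mitosis and control genes ranked, 3 were among the closest 100 of the 16136, namely Nusap1 (0.94), Incenp (0.90) and Chaf1a (0.90).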
